A study of Mus musculus with 4514 samples.

Results

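Single nuclei from adult mouse hepatocytes that hold the same DNA content per cell but package it differently were compared: 69 nuclei labelled 1x4N, from tetraploid cells with 1 nucleus, and 66 nuclei labelled 2x2N, from tetraploid cells with 2 diploid nuclei. They were chosen by their column labels alone, with no measured value, and are part of the 1113 nuclei and 4514 samples of the series. All came from P60 liver, from mice carrying Alb-Cre, a recombinase driven in hepatocytes, and the reporter Rosa-tdTomato, with no other allele or treatment named for either group. Hepatocytes were sorted, then opened by homogenising, and their nuclei were stained with DAPI, a DNA dye, sorted 1 by 1 and processed with the well-based mSTRT-seq protocol, which tags transcript ends. Nuclei labelled 1x2N (57), 2x4N (56), 2N and 4N from P60 mice of the same genotype are set beside them where a result needs a reference. The sources used here do not say how the number of nuclei per cell was assigned, which animals or plates the nuclei came from, or how much spike-in RNA each well received.

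Hepatocytes become polyploid after birth. When a cell copies its DNA and divides its nucleus but not its body, it stays binucleate, and a later round that ends in a single spindle leaves a mononucleate cell with larger nuclear DNA content. Hepatocytes also differ by position in the liver lobule: cells next to the central vein make glutamine, bile acids and many cytochrome P450 enzymes, and cells next to the portal vein run urea and glucose synthesis and break down amino acids. A nucleus holds newly made transcripts and retained nuclear RNA, so its counts report on transcription and nuclear retention more than on the cytoplasmic mRNA store.

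Because no label names an animal, the nuclei of a label were summed into 1 pool and each pool counts as 1 sample. No test between 1x4N and 2x2N is therefore given. Differences are reported as CPM (gene counts scaled to equal pool totals, without spike-ins), as fold changes on the log2(CPM + 1) scale, with exact 95% intervals that cover counting error only, and with the range over nuclei as a description. Reaching 2-fold or 1.5-fold is a statement of size.

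The 1x4N pool held 21195886 gene counts and the 2x2N pool 12193695, with a median of 311937 counts per 1x4N nucleus (10166 to 576656) and 186918 per 2x2N nucleus (7595 to 452680). No pair of nuclei was identical. The 9 measured hepatocyte markers of 10 summed to 13633 CPM in 1x4N and 15699 in 2x2N, and no nucleus fell below 4706 CPM. Markers of other liver cells were near 0: the endothelial list summed to 14.1 and 19.52 CPM, with Kdr, Clec4g, Lyve1, Egfl7 and Cdh5 at 0, the macrophage list to 4.25 and 4.92 CPM, and the stellate list to 16.9 and 3.03 CPM. Xist had no count in any of the 749 P60 nuclei of the 6 pools. Of the 1x4N nuclei, 6 had no more genes than the 2x2N median at equal depth, with 4.68 to 10.51 gene counts per spike-in count and Malat1 levels of 13622 to 53896 CPM. They were kept in every value given here.

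Gene counts relative to spike-ins were nearly 2-fold higher in 1x4N nuclei. ERCC spike-ins, synthetic RNAs added to each well, took 5.45% of all counts in the 1x4N pool and 9.86% in the 2x2N pool. There were 17.3 gene counts per spike-in count in 1x4N and 9.14 in 2x2N, a ratio of 1.90 (counting interval 1.89 to 1.90) between the pools. Over nuclei, the lowest, median and highest values were 3.42, 16.5 and 31.96 in 1x4N and 3.64, 8.39 and 15.7 in 2x2N, a ratio of medians of 1.97. The ranges overlapped at the low end, but 65 of 69 1x4N nuclei lay above the 2x2N median and 0 of 66 2x2N nuclei above the 1x4N median. These ratios assume an equal spike-in amount per well, which was not tested.

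Counted per cell, the difference nearly vanished. Multiplying by the number of nuclei, and taking both nuclei of a 2x2N cell as alike, gave 17.3 per 1x4N cell and 18.3 per 2x2N cell, a ratio of 0.949. The other nuclei fell in the same order by DNA per nucleus: 2x4N nuclei had 17.4 gene counts per spike-in count, with 1x4N over 2x4N at 0.996, and 1x2N nuclei had 7.70, with 2x2N over 1x2N at 1.19. The 2x4N nuclei exceeded the 1x2N nuclei 2.26-fold. In the 4N and 2N nuclei, which were sorted without a count of nuclei per cell, spike-ins made up 1.10 and 1.14% of counts, 37 and 26 nuclei had none, and the ratio was 1.04 from sums and 1.67 from medians.

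The difference was spread over nearly all genes. On the spike-in scale 94.8% of the 8971 measured genes were higher per 1x4N nucleus, with a median ratio of 1.97 and quartiles of 1.59 and 2.45, and the median ratio per cell was 0.984. Malat1, a long noncoding RNA retained in the nucleus, was 1.29-fold higher per nucleus on this scale, below the lower quartile of all genes. Glul, which encodes glutamine synthetase, was at 0.814-fold, and Hpx, which encodes the haem carrier hemopexin, at 1.04-fold. Cyp7a1, the rate-limiting enzyme of bile acid synthesis, was at 4.47-fold and Hamp2, a hepcidin gene, at 6.89-fold, both above the upper quartile.

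**Figure D1:**
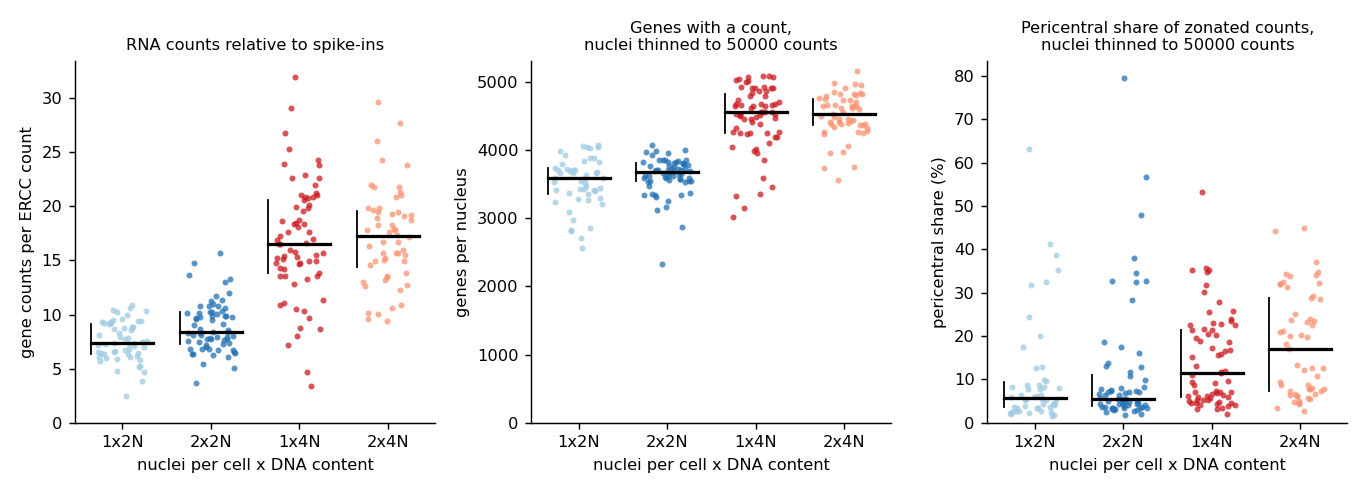
Gene counts per spike-in count, genes per nucleus after thinning to 50000 counts, and the pericentral share of zonated counts (percent), for the 1x2N, 2x2N, 1x4N and 2x4N nuclei at P60. Points are nuclei, thick lines medians and thin lines quartile ranges; the 1x4N median of gene counts per spike-in count is 16.5 and the 2x2N median 8.39.

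More genes were seen per 1x4N nucleus at the same depth. After each nucleus was thinned to 50000 gene counts, the lowest, median and highest numbers of genes were 3018, 4549 and 5078 in 67 1x4N nuclei and 2333, 3672 and 4076 in 64 2x2N nuclei, with 2 nuclei of each group too shallow. The difference of medians was 877 genes, and 56 of 67 1x4N nuclei exceeded the highest 2x2N nucleus. The 2x4N and 1x2N medians, 4522 and 3585 genes, lay close to those of the pool with the same DNA per nucleus. Before thinning the medians were 5416 and 4171.5 genes. The spike-ins, thinned to 5000 counts, gave a median of 32 species per 1x4N nucleus (27 to 39) and 34 per 2x2N nucleus (29 to 39). These values describe recovery of the spike-ins alone; thinning equalises counts and not the RNA a nucleus held, whose part in the difference in genes was not tested.

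In relative terms most genes were alike. In CPM, 6595 genes, 73.5% of the 8971 measured, lay within 1.5-fold, with a median log2 difference of 0.07. At 2-fold, 602 genes were higher in 1x4N, 6.71% of those measured, and 3.71% were lower, 935 genes together. Most had low levels: with the measured genes split into 5 equal bins by mean CPM, 82.4% of the higher and 80.8% of the lower genes were in the lowest 2 bins. A single nucleus held over 25% of the higher pool's counts in 26.7% of the higher genes and 56.8% of the lower genes. In the top bin 4 genes reached 2-fold: Hamp2 and Cyp7a1 were higher in 1x4N, and Glul and Cyp2c38, a cytochrome P450, were lower. Dividing by spike-ins instead of totals moved the median log2 difference from 0.07 to 0.98 and the share of 2-fold genes that were higher from 64.4 to 98.8%. All levels and log2 differences that follow are in CPM, and so relative to the rest of a nucleus's RNA. On the spike-in scale several genes that were lower in CPM were higher per 1x4N nucleus, such as Malat1 (1.29-fold), Gldc (1.19-fold), Alb (1.42-fold) and Hpx (1.04-fold). The periportal, plasma protein and acute phase lists, which lay below 0 in CPM, had medians of 0.58, 0.64 and 0.54 there, under the 0.98 of all genes.

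**Figure D2:**
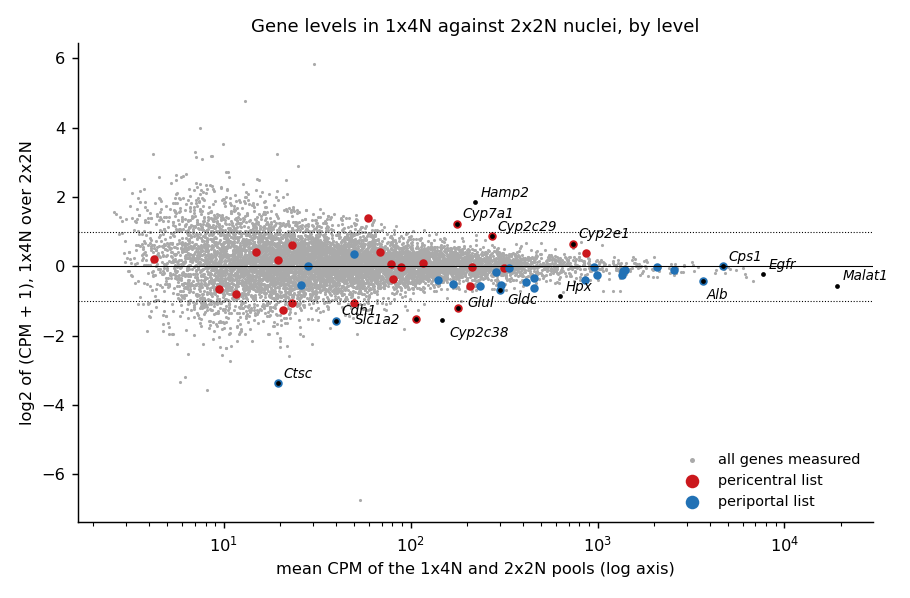
Log2 fold change of 1x4N over 2x2N against the mean CPM of both pools (log axis) for the 8971 measured genes. Pericentral genes are red and periportal genes blue, and dotted lines mark 2-fold; genes past 2-fold are mostly at the low end.

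Malat1 (chromosome 19, 5795690-5802672, minus strand, GRCm38) had the highest CPM in both pools and was lower in 1x4N in CPM. Its lowest, median and highest levels over nuclei were 7647, 16255 and 53896 CPM in 1x4N and 10238, 25894 and 60357 CPM in 2x2N. The ranges overlapped, and 58 of 69 1x4N nuclei lay below the 2x2N median. The pooled levels were 15446 and 22773 CPM, a ratio of 0.678 (0.675 to 0.682) or -0.56 on the log2 scale, and Malat1 made up 1.54% of counts in 1x4N and 2.28% in 2x2N. In the nuclei of other labels, Malat1 was lower with more nuclear DNA in both pairs, by -0.92 in 2x4N over 1x2N and by -0.48 in 4N over 2N (log2). Malat1 levels also varied with depth inside each pool. The nuclei with the highest levels had 62268 counts in 1x4N and 52885 in 2x2N, and those with the lowest had 535638 and 333854. The part of depth in the differences between pools was not tested. Neat1, the noncoding RNA of paraspeckles and a neighbour of Malat1 on chromosome 19 (5824708-5845478), stood at 5009 and 5239 CPM (log2 -0.06).

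The genes with the next highest CPM leaned the same way by less. Egfr, the epidermal growth factor receptor, was at 7074 CPM in 1x4N and 8262 in 2x2N, Cyp7b1, an oxysterol hydroxylase, at 5777 and 7786, and Acsl1, which activates long-chain fatty acids, at 5536 and 6877. Dpyd, the first enzyme of pyrimidine breakdown, differed by -0.21 and Camk2b, a calcium-dependent kinase, by -0.05 on the log2 scale. The 100 genes with the highest counts took 23.4% of 1x4N counts and 25.5% of 2x2N counts. Malat1, among the 100, took 1.54 and 2.28% of counts. The shares of the 100 were 23.6 and 26.6% in 2x4N and 1x2N, and 18.6 and 22.1% in 4N and 2N. Of the 100, 64 were lower in 1x4N, against 43.7% of all measured genes. The difference was small: their median was -0.05 (log2), and 2 of the 100 were 1.5-fold lower, against 10.3% of all.

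The typical 1x4N nucleus carried more pericentral transcript, although the 2 highest shares in these groups were in 2x2N nuclei. At equal depth, the pericentral list took 11.4% (median; 1.95 to 53.2%) of the counts of the pericentral and periportal lists in 1x4N nuclei and 5.56% (1.78 to 79.5%) in 2x2N nuclei, and 51 of 67 1x4N nuclei exceeded the 2x2N median. The difference of medians was 5.86 percentage points. A share of at least 10% was reached by 35 of 67 1x4N nuclei (52.2%) and 17 of 64 2x2N nuclei (26.6%). At least 20% was reached by 21 and 9, at least 40% by 1 and 3, and at least 50% by 1 and 2. In 2x4N and 1x2N nuclei the medians were 17.1 and 5.81%, and 33 of 55 and 11 of 50 nuclei reached 10%.

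The 3 most pericentral 2x2N nuclei, at 79.5, 56.7 and 47.96%, held 3372, 1978 and 2.21 CPM of Glul, which marks the cells touching the central vein, and 3129, 2507 and 645 CPM of Slc1a2, the glutamate transporter of the same cells. The most pericentral 1x4N nucleus, at 53.2%, held 215.7 CPM of Glul and 2184 CPM of Slc1a2. Pooled values of pericentral genes therefore rest in part on few nuclei. Of 24 measured pericentral genes of 30, 5 (20.8%) were at least 1.5-fold higher and 7 (29.2%) lower in 1x4N. Over all measured genes the shares were 16.2 and 10.3%. The list's median log2 difference was 0.04 and its mean -0.08, opposite in sign. Its median was 1.16 in 2x4N over 1x2N, where 16 genes were 1.5-fold higher and 2 lower. In 4N over 2N the median was 0.26, with 4 higher and 3 lower. The median of all measured genes was 0.07 in each of these pairs. A count was present in a larger share of thinned 1x4N nuclei for 21 of the 24 genes (87.5%), close to the 86.1% of all measured genes.

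Cyp2e1 (chromosome 7, 140763739-140774987), the ethanol-oxidising P450, was higher in the median 1x4N nucleus. Its lowest, median and highest levels were 6.58, 435 and 2790 CPM in 1x4N nuclei and 0, 22.03 and 3722 CPM in 2x2N nuclei. The ranges overlapped in full, but 62 of 69 1x4N nuclei exceeded the 2x2N median. That median was low, and the 1x4N lower quartile, 33.9 CPM, lay close above it. The pooled levels, 903 and 573 CPM, differed 1.58-fold (1.53 to 1.62), and the log2 differences were 1.34 in 2x4N over 1x2N and 0.46 in 4N over 2N.

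Cyp7a1 (chromosome 4, 6265612-6275633) had a count in 73.9% of 1x4N nuclei and 37.9% of 2x2N nuclei. Its nuclear median was 62.9 CPM in 1x4N and 0 in 2x2N, with highest levels of 818 and 912 CPM. The groups differed more in how many nuclei had the transcript than in the highest levels. These shares of nuclei are from before thinning. At equal depth, 86.1% of all measured genes had a count in a larger share of 1x4N nuclei. Cyp7a1 reached 10 counts or more in 35 1x4N and 17 2x2N nuclei. The pooled 249.7 and 106.1 CPM differed 2.35-fold (2.21 to 2.50), or 1.00 on the log2 scale after thinning. In 2x4N over 1x2N Cyp7a1 differed by 2.01 and in 4N over 2N by 0.02 (log2).

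Other pericentral genes lay on both sides. Among the Cyp2c genes of the list, whose near-identical sequences leave the member uncertain, Cyp2c29 was 1.84-fold higher (1.75 to 1.93), with a pooled 351 CPM in 1x4N and nuclear medians of 67.2 and 2.07 CPM, and Cyp2c50 at 86.3 and 32.3 CPM. Cyp2c37, at 31.99 and 67.3 CPM, and Cyp2c54, at 168.8 and 249.3 CPM (log2 -0.56), were lower; 47.3% of the 2x2N counts of Cyp2c37 were in 1 nucleus, and it was at -0.64 (log2) after thinning. Cyp1a2, which metabolises caffeine, was at 11.8 and 29.6 CPM (-1.26) and Cyp2a5, a coumarin hydroxylase, at 14.6 and 31.5 CPM (-1.06), with 25.2 and 70.6% of their 2x2N counts in 1 nucleus. In 2x4N over 1x2N both were higher, by 1.6 and 1.35. Cyp27a1, a mitochondrial sterol hydroxylase of bile acid synthesis, was at 976 and 754 CPM.

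Glul (chromosome 1, 153899944-153909723) was, like these lower genes, lower in the pool, but higher in the median nucleus. Its nuclear median was 38.3 CPM in 1x4N and 6.76 in 2x2N, while the highest nuclei held 1156 and 3372 CPM. The pooled levels were 107.8 and 251.4 CPM (log2 -1.21), with 37.9% of all 2x2N Glul counts in 1 nucleus. Without the top nucleus of each group they were 94.1 and 160.6 CPM (log2 -0.76). Glul differed by 0.02 in 2x4N over 1x2N and by -0.80 in 4N over 2N. Slc1a2, at 55.2 and 159.3 CPM, rested on 1 nucleus for 90.1% of its 1x4N counts and 55.6% of its 2x2N counts.

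**Figure D3:**
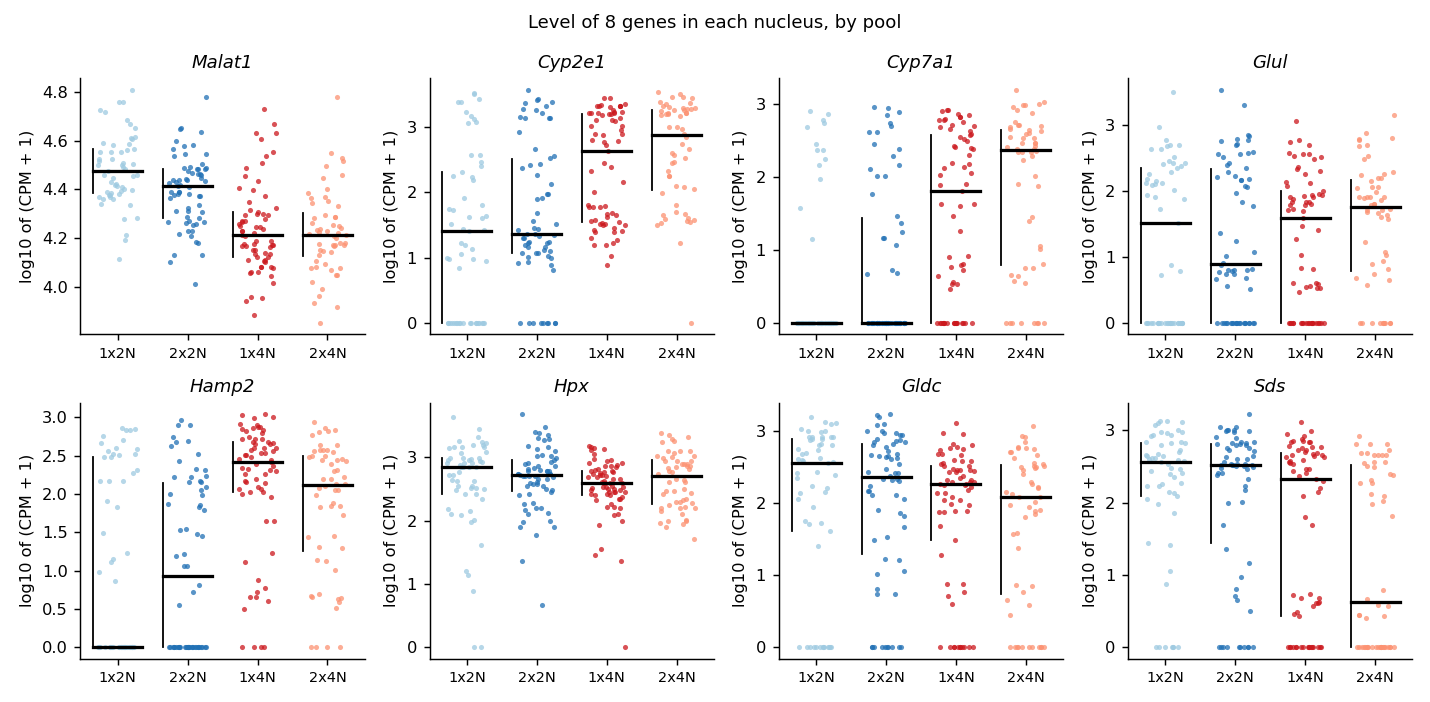
Level per nucleus, as log10(CPM + 1), of Malat1, Cyp2e1, Cyp7a1, Glul, Hamp2, Hpx, Gldc and Sds. Shown are 57 1x2N, 66 2x2N, 69 1x4N and 56 2x4N nuclei. Each point is a nucleus. For Hamp2 the 2x2N nuclei spread down to 0 while most 1x4N nuclei sit high. For Cyp2e1 the 1x4N and 2x2N nuclei both spread widely, with lower quartiles of 33.9 CPM in 1x4N and 10.6 CPM in 2x2N. For Malat1 most 1x4N nuclei sit below the 2x2N median.

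Periportal genes were mostly lower in 1x4N in CPM, by a small margin. Of 25 measured genes of 28, 22 (88%) were below 0 on the log2 scale, against 43.7% of all measured genes. By size, 0 were 1.5-fold higher, against 16.2% of all, and 4 (16%) were 1.5-fold lower, against 10.3%, with a median of -0.34. The list's medians were -0.46 in 2x4N over 1x2N and -0.30 in 4N over 2N. The 4 genes were Gldc, of glycine cleavage, Hsd17b13, a lipid-droplet enzyme, Cdh1, which encodes E-cadherin, and Ctsc, a lysosomal protease.

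Gldc (chromosome 19, 30098447-30175429) had lowest, median and highest levels of 0, 180 and 1282 CPM in 1x4N nuclei and 0, 227.2 and 1691 CPM in 2x2N nuclei. The groups overlapped nearly in full, and the pooled 231.4 and 368.4 CPM gave a log2 difference of -0.67, beside -1.16 in 2x4N over 1x2N and -1.12 in 4N over 2N. Sds, a serine dehydratase, was at 246.3 and 360.4 CPM, with nuclear medians of 208.6 and 325.4 CPM and other pairs at -1.54 and -1.65 (log2). Hsd17b13 was at 359 and 552 CPM. Hal, which starts histidine breakdown, was at 137.8 and 197.7 CPM, and Etnppl, a phospholyase, at 190.7 and 282.2 CPM. Gldc, Sds, Hsd17b13, Hal and Etnppl, though members of a list, were picked for display after their values were seen.

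The periportal lean did not extend to every member. Cps1, the first enzyme of the urea cycle, stood at 4724 CPM in 1x4N and 4705 in 2x2N (log2 0.01), Pck1, of glucose synthesis, at 2464 and 2644, and Igf1, the growth hormone-dependent hormone, at 2076 and 2084. Cdh1 was at 19.7 and 60.4 CPM (log2 -1.57) and was lower in the other pairs too, by -1.41 and -0.85. Ctsc, at 2.59 and 36.3 CPM, had 10 counts or more in 1 nucleus of 1x4N and 10 of 2x2N. The urea and amino acid list, which shares genes with the periportal list, had 0 of 17 measured genes past 1.5-fold in either direction. Over all measured genes, 16.2% were higher and 10.3% lower.

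**Figure D4:**
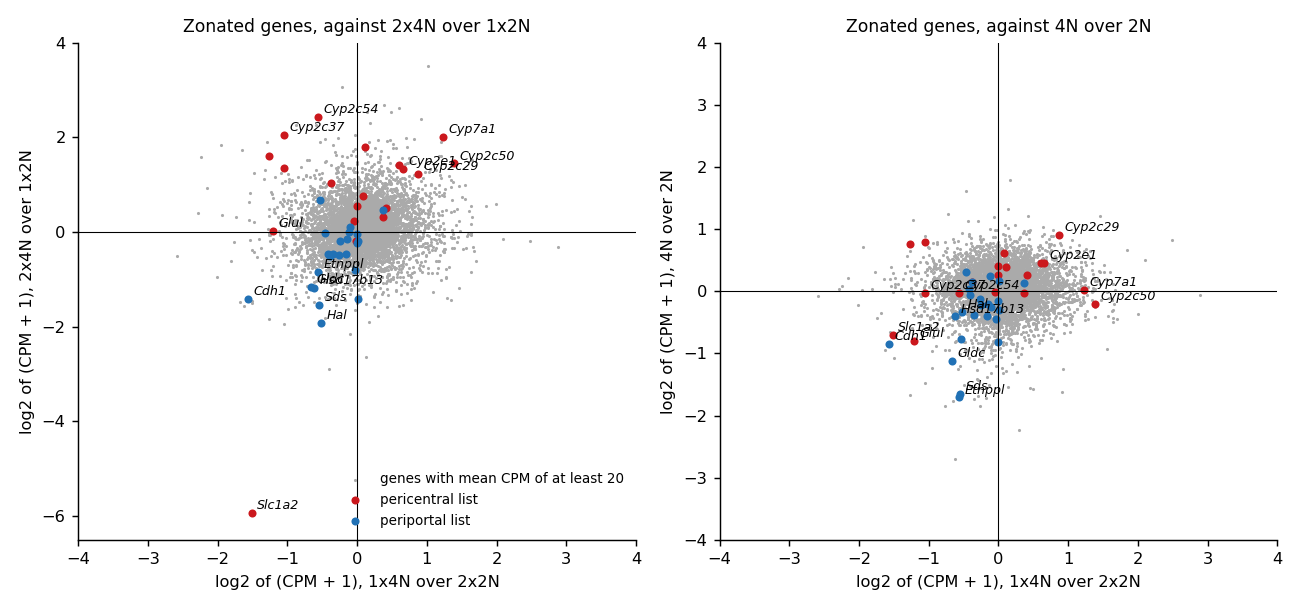
Log2 fold change of 1x4N over 2x2N (horizontal) against that of 2x4N over 1x2N and of 4N over 2N (vertical) for pericentral (red) and periportal (blue) genes with a mean of at least 20 CPM. The pairs share no nuclei; Gldc is below 0 in all 3, while Glul is near 0 in 2x4N over 1x2N.

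The other P60 labels hold nuclei with the same step in nuclear DNA and share no nuclei with 1x4N and 2x2N. Whether they share animals or plates is not known, and 2x4N and 1x2N cells differ in cell DNA content and in nuclei per cell as well. Of the 602 genes at least 2-fold higher in 1x4N, 54.3% were also higher in 2x4N over 1x2N, against 56.1% of all measured genes, and 17.8% were at least 2-fold higher there, against 8.61% of all. The latter were 13.9% of the genes 2-fold higher in that pair. Of the lower genes, 46.2% were lower in 2x4N over 1x2N, against 43.9% of all, and 39 (11.7%) at least 2-fold, against 5.18%. In 4N over 2N, 17 of the 602 higher genes (2.82%) and 16 of the lower genes reached 2-fold in the same direction, against 0.992 and 1.54% of all. Whether these shares differ from those of all genes was not tested.

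A fit across genes was possible only in those 4 other pools, with 1x2N and 2N against 2x4N and 4N and 2 residual degrees of freedom. Of 12872 genes, 0 passed an adjusted p of 0.05 with edgeR's quasi-likelihood test (0% of those tested), 90 had an unadjusted p below that value, and DESeq2 called 4. There, Gldc differed by -1.21 (SE 0.33, edgeR adjusted p = 1.00) and Malat1 by -0.76 (SE 0.27, edgeR adjusted p = 1.00) on the log2 scale.

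Across all 3 pairs, 5 genes (0.0557% of those measured) were at least 2-fold higher with more nuclear DNA: Arl5c, Tmco6, Nmnat2, 1110004E09Rik and Tmem216. Another 7 (0.078%) were at least 2-fold lower: Fam124a, App, Ctsc, 1810064F22Rik, Arhgap10, Pcgf2 and Tchh. Without the top nucleus of each group, Pcgf2 and Tchh differed by -0.30 and -0.897 (log2) in 1x4N over 2x2N. These genes were then under 2-fold, while the others listed stayed past it. Genes in this paragraph were picked after their values were seen. Arl5c, a small GTPase of the ARF family (chromosome 11, 97989578-97996181), had 1280 counts in 1x4N and 1 in 2x2N, 60.4 and 0.0820 CPM, a ratio of 736 (131.9 to 29107). It had a count in 52 of 69 1x4N nuclei and 1 of 66 2x2N nuclei, but reached 10 counts in 10 and 0 nuclei. Arl5c was at 55.5 and 3.53 CPM in 2x4N and 1x2N, and at 190 and 75.9 CPM in 4N and 2N. Fam124a was at 64.2 and 155.4 CPM in 1x4N and 2x2N, 41.1 and 150 CPM in 2x4N and 1x2N, and 15.5 and 51.7 CPM in 4N and 2N. Gsta3, a glutathione transferase, was 1.5-fold or more higher in all 3 pairs (log2 0.60, 0.77 and 0.74), and Nampt, of NAD synthesis, was 1.5-fold or more lower (-0.71, -0.68 and -0.94).

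The hepcidin genes Hamp2 and Hamp were higher in 1x4N. Hamp2 (chromosome 7, 30922372-30924681) had lowest, median and highest levels of 0, 262.3 and 1086 CPM in 1x4N nuclei and 0, 7.97 and 922 CPM in 2x2N nuclei. Before thinning, a count was present in 94.2% of 1x4N and 54.5% of 2x2N nuclei, and 58 of 69 1x4N nuclei exceeded the 2x2N median. At equal depth, 86.1% of all measured genes had a count in a larger share of 1x4N nuclei. Hamp2 reached 10 counts or more in 53 1x4N and 21 2x2N nuclei. The pooled 347 and 95.5 CPM differed 3.63-fold (3.41 to 3.86), and the other pairs differed by 0.55 and 0.67 on the log2 scale. Hamp, the neighbouring gene, was at 1012 and 617 CPM, with medians of 969 and 158.9 CPM and a log2 difference of 0.71, or 0.50 after thinning. The genes are alike, so reads of either gene may have been shared. Hamp2, Hamp and Cyp2c38 were taken up after their values were seen. Cyp2c38, at 74.1 and 220 CPM, had 35.7% of its 2x2N counts in 1 nucleus and differed by 0.64 and -0.66 in the other pairs.

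Drug metabolism genes differed in both directions. Of 25 measured genes of 27, 7 (28%) were 1.5-fold higher and 4 (16%) lower, against 16.2 and 10.3% of all measured genes, with a median log2 difference of 0.26. Nr1i3, the xenobiotic receptor CAR, was at 91.4 and 35.4 CPM, with nuclear medians of 69.01 and 10.7 CPM, and at 0.96 and 0.00 (log2) in the other pairs. Of 18 bile acid genes, 2 (11.1%) were 1.5-fold higher, a smaller share than over all genes, Cyp7a1 and Slco1b2, a bile acid uptake transporter at 1274 and 832 CPM, and 0 were lower. Of 16 measured cholesterol synthesis genes, 4 (25%) were higher and 1 (6.25%) lower; Fdps, which makes farnesyl diphosphate, was at 78.1 and 35.7 CPM.

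Genes of secreted plasma proteins were mostly below 0 in CPM, 21 of 24 measured (87.5%, against 43.7% of all genes), with a median of -0.28. Those 1.5-fold lower numbered 3 (12.5%), near the 10.3% of all genes, and 0 were 1.5-fold higher. Hpx had lowest, median and highest levels of 0, 387 and 1492 CPM in 1x4N nuclei and 3.63, 526 and 4765 CPM in 2x2N nuclei, and a pooled log2 difference of -0.87. Apoe, a lipoprotein component, was at 804 and 1326 CPM although its nuclear medians, 764 and 810 CPM, were close. Albumin, encoded by Alb, was at 3142 and 4199 CPM. The plasma protein list had medians of -0.15 and 0.01 in the other pairs, so the lean was not seen in 4N over 2N.

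The acute phase list, which shares Hpx, Hp and the fibrinogen genes with it, had 6 of 13 measured genes (46.2%) 1.5-fold lower and 0 higher. Over all measured genes the shares were 10.3 and 16.2%. After thinning, Apcs went from -0.97 to 0.24 and Saa1 from -0.68 to -0.24 (log2), so neither stayed 1.5-fold lower. One nucleus held 45.7% of the 2x2N counts of Apcs. Hpx, Crp, Lbp and Itih4 stayed 1.5-fold lower after thinning, at -0.68, -0.98, -0.67 and -0.68. The list's median was -0.38, with -0.29 and -0.31 in the other pairs. Of 12 measured major urinary protein genes, 2 (16.7%) were 1.5-fold higher and 5 (41.7%) lower, against 16.2 and 10.3% of all measured genes. The median was -0.43 and the mean -0.27. Mup20, a male pheromone protein, was at 1000 and 1633 CPM and Mup3 at 491 and 813 CPM. At lower levels, Mup2 was at 14.7 and 5.08 CPM, Mup14 at 15.8 and 47.7 CPM and Mup16 at 7.69 and 24.9 CPM. Members of the Mup family share sequence. The list's medians were 0.46 and 0.23 in the other pairs, opposite in direction, but this did not hold for every measure. Mup20 was at -1.37 in 2x4N over 1x2N and at 0.18 in 4N over 2N (log2). The list's summed levels were 1384 and 2473 CPM in 2x4N and 1x2N, and 5066 and 4210 CPM in 4N and 2N.

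Regulators gave scattered differences. Of 14 measured clock genes, 3 (21.4%) were 1.5-fold higher and 2 (14.3%) lower, with a median of 0.08. Over all measured genes the shares were 16.2 and 10.3%. Tef, a circadian transcription factor, was at 317.04 and 185.5 CPM, Per1 and Cry2, repressors of the clock, at 72.99 and 33.8 and at 45.4 and 17.2 CPM, and Dbp, a clock output factor, at 1.70 and 6.31 CPM. The time of day of tissue collection is not known here. Of 29 measured liver transcription factors, 5 (17.2%) were higher and 2 (6.9%) lower. Foxa2 was at 42.8 and 20.5 CPM and Cebpa at 25.7 and 11.2 CPM, with Cebpa at -0.75 in 2x4N over 1x2N.

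Few cell cycle genes passed the filter on counts. They were 6 of 20 S-phase genes and 2 of 22 genes of G2 and mitosis, of which 1 was 1.5-fold higher and 1 lower, while 5 and 8 genes of these lists had no count in either group. The S-phase list had a median of -0.12 and a mean of 0.36, opposite in sign. Ccne2, an S-phase cyclin, was at 14.5 and 0.820 CPM. Of 22 regulators of hepatocyte ploidy, 12 were measured, 2 (16.7%) were 1.5-fold higher and 1 (8.33%) was lower, with a median of -0.09. Over all measured genes the shares were 16.2 and 10.3%. Lats2, a Hippo kinase, was at 60.4 and 71.4 CPM, Mdm2, which degrades p53, at 48.6 and 49.6 CPM, and Rb1, which restrains E2F, at 62.9 and 58.1 CPM.

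Of 43 measured ribosomal protein genes, 9 (20.9%) were 1.5-fold higher and 1 (2.33%) lower, against 16.2 and 10.3% of all measured genes. Their median was 0.23. Among them Rplp1 was at 28.7 and 10.3 CPM, Rpl37 at 43.5 and 21.1 CPM and Rps20 at 5.85 and 12.96 CPM. Of 27 oxidative phosphorylation genes 3 (11.1%) were higher and 2 (7.41%) lower, with a median of 0.21, and Atp5e, a subunit of ATP synthase, was at 22.4 and 4.51 CPM. Of 21 genes of the transcription machinery, 0 were higher and 1 (4.76%), the RNA polymerase subunit gene Polr2e, was lower (10.9 and 23.9 CPM). Of 19 chromatin and lamina genes, 3 (15.8%) were higher and 0 lower, with a median of -0.03. Lmnb2, a nuclear lamin, was at 24.9 and 7.79 CPM, and reached 10 counts in 16 1x4N and 3 2x2N nuclei, and Lbr, the lamin B receptor, was at 10.95 and 4.43 CPM. Of 17 fatty acid oxidation genes, 1 (5.88%) was higher and 3 (17.6%) were lower. The higher one, Acaa1b, a peroxisomal thiolase, was at 160 and 75.9 CPM. In fatty acid synthesis, Scd1, a desaturase, was at 17.9 and 44.3 CPM and Gpam, which starts glycerolipid synthesis, at 26.04 and 10.99 CPM.

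Members of the stress and hormone lists past 2-fold were, apart from Btg2, also at low levels. Of the immediate early genes, Ier2 was at 31.7 and 12.7 CPM, Egr1 at 1.75 and 7.71 CPM and Btg2, also a p53 target, at 38.3 and 79.1 CPM. Of the other p53 targets, Bbc3, which promotes cell death, was at 8.54 and 2.46 CPM, Sesn2 at 9.34 and 3.03 CPM and Zmat3 at 4.77 and 13.5 CPM. Dnajb9, a chaperone of the endoplasmic reticulum, was at 7.78 and 21.5 CPM, and Elovl3, a fatty acid elongase higher in male liver, at 16.8 and 4.92 CPM. Pecam1, an endothelial gene, was at 7.83 and 1.23 CPM, with 76.5% of its 1x4N counts in 1 nucleus.

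Among genes with a count in at least 30% of the higher group's nuclei, no more than 25% of its counts in 1 nucleus and 2-fold also after thinning, the largest differences were in low genes. The limit on 1 nucleus leaves out Arl5c, with 30.4% of its 1x4N counts in 1 nucleus. S100a1, a calcium-binding protein, was at 13.6 and 0.492 CPM (log2 3.29), Ccdc157 at 35.8 and 2.87 CPM (3.25), Mrpl32, of the mitochondrial ribosome, at 19.1 and 2.05 CPM (2.72) and Blvrb, a biliverdin reductase, at 37.2 and 5.82 CPM (2.49). In 2x4N over 1x2N these genes were at -0.41, 0.27, -1.21 and -0.18, so none recurred at 2-fold. Mxd1, a MYC antagonist at 26.2 and 3.77 CPM, was at 1.14 there and at -0.07 in 4N over 2N. On the lower side, Gm10800 was at 0.236 and 11.4 CPM (-3.33), Klhl26 was at 6.75 and 36.8 CPM (-2.29), Fis1, of mitochondrial fission, at 11.2 and 39.9 CPM (-1.74) and Krt8, a keratin of hepatocytes, at 11.4 and 33.8 CPM (-1.49). Retn, with 0 counts in 1x4N and 1301 in 2x2N, and C5ar1, with 553 and 0, were seen in effect in a single nucleus each, which held 98.5 and 94.8% of the counts; both were picked after their values were seen.

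The 2x2N nuclei differed more from each other. Over 5599 genes with a mean of at least 1 thinned count in both groups, the squared coefficient of variation over nuclei had a median of 1.53 in 1x4N and 2.33 in 2x2N, and was larger in 2x2N for 88.3% of genes. The excess was present at every level, from 83.3% of genes in the lowest of 5 bins of level to 92.7% in the highest, and 2x4N against 1x2N nuclei gave 1.46 and 2.42, with 90.96% larger in 1x2N. The 40 spike-in species, thinned to 5000 counts, had medians of 0.637 and 0.680 and were larger in 2x2N for 19 (47.5%). The lower RNA content of 2x2N nuclei relative to spike-ins moves with this difference, and its part was not tested.

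Genes of the zonated programme shared this pattern: squared coefficients of variation in 1x4N and 2x2N were 1.16 and 3.45 for Cyp2e1, 1.68 and 4.89 for Cyp7a1, and 3.14 and 5.995 for Glul. Hamp2 had 0.872 and 3.92, and Apoe 0.277 and 1.14. Alb, with 0.0801 and 0.155, and Cps1, with 0.107 and 0.217, differed as well, while Egfr was nearly equal at 0.0952 and 0.100. Malat1 ran the other way, with 0.238 in 1x4N and 0.111 in 2x2N.

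**Figure D5:**
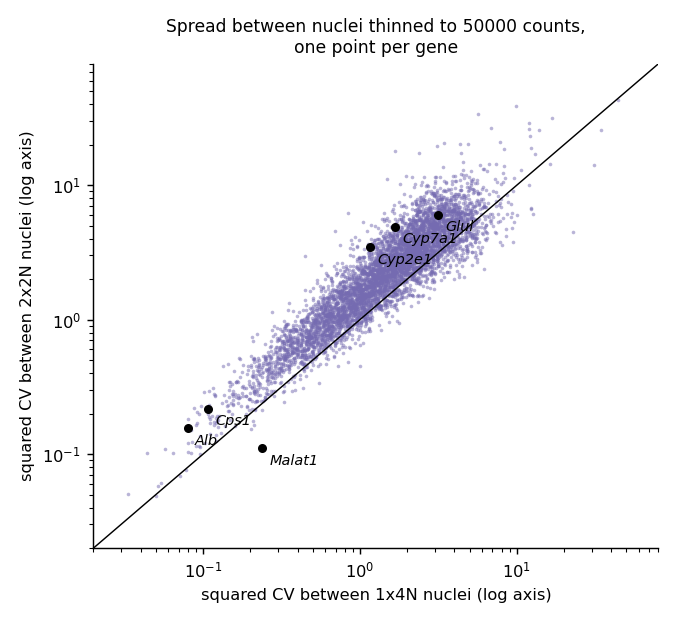
Squared coefficient of variation of thinned counts over nuclei, 1x4N (horizontal) against 2x2N (vertical), both axes logarithmic, for 5599 genes. The line marks equality; 88.3% of genes lie above it, and Malat1 lies below.

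Shares of counts by chromosome were close, with log2 differences between -0.06 and 0.07 on the autosomes other than 19 and on X. The 4 measured genes of chromosome Y took 0.0679% of 1x4N and 0.0564% of 2x2N counts, a log2 difference of 0.27. Chromosome 19, which carries Malat1, took 5.97% of 1x4N and 6.67% of 2x2N counts, and 6.08 and 7.19% in 2x4N and 1x2N. Malat1 alone made up 1.54 and 2.28% of gene counts in 1x4N and 2x2N, and 1.52 and 2.86% in 2x4N and 1x2N.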

How the data were processed

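The authors deposited whole-number counts per gene symbol for each nucleus, with no normalization, in 1 table of 40824 genes and 92 ERCC entries; 364 of its columns, and 3 of the 4 tables, were not used. The submitters' processing notes name TopHat2 2.1.0, HISAT2 2.1.0, Bowtie2, HTSeq 0.6.0, featureCounts 1.5.3 and 2.0.0, SAMtools 1.3.1, UMI-tools 0.5.0, Trimmomatic 0.39, GRCm38 and mm10 with no role. The counter used for this table, its use of strand, its treatment of reads shared by similar or overlapping genes, and whether counts are molecules: not given in the sources used here. Counts may be amplified reads and members of the Mup, Cyp2c and Hamp families are uncertain.

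Groups came from the labels. Nuclei were summed by label, leaving out ERCC entries, and scaled to CPM. Genes needed a count in at least 10% of the 135 nuclei and at least 100 counts; 1 CPM was added before log2. Thinning drew 50000 gene counts per nucleus without replacement, and 5000 spike-in counts for the control. Intervals of gene ratios are exact binomial at 95%. The interval of the spike-in ratio is a 95% normal approximation on the log scale, from the count totals. The other P60 pools were tested with edgeR 4.0.16 (two-sided quasi-likelihood, TMM, filterByExpr, Benjamini-Hochberg; R 4.3.3), with DESeq2 1.42.0 as an alternative; those p-values measure only the spread between pools, which may be technical. Python 3.11.15, numpy 2.4.6, pandas 2.3.3, scipy 1.17.1 and matplotlib 3.10.9 were used, and both procedures were tested on simulated data. Coordinates are from GENCODE M21 on GRCm38, in which 36358 of 40824 symbols matched 1 entry. No doublet caller was run. Nuclei were sorted 1 by 1, but whether some wells received nuclei stuck together was not tested. Members and lists were chosen with earlier results of these data known. Genes were named from the 12 with the largest fold in each direction that kept 2-fold after thinning, had a count in 30% of the higher group's nuclei and no more than 25% of counts in 1 nucleus; up to 4 members of each list by mean CPM and any past 2-fold; and the 6 genes with the highest CPM; a few of these are not reported here. Alternatives changed thinning, scaling, filter, pseudocount and the nuclei used.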

Additional observations from a re-analysis of the deposited data

How the results depend on the processing

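No named gene at least 2-fold different between the groups changed direction under any setting run, nor did the spike-in ratio or the differences in genes per nucleus, pericentral share and spread. Smaller differences did: on the spike-in scale 64 named genes changed sign, with CPM differences of up to 0.87 (log2) in size, among them Malat1, Alb and Hpx. Without the top nucleus of each gene 7 did, of which Slbp went from -0.70 to 0.17, and under the other settings 0 to 10 did, each at most 0.17 in size. With spike-ins as the scale, 4300 genes (47.9% of those measured) were at least 2-fold higher in 1x4N and 51 (0.568%) lower. With no filter 1542 (10.98%) and 1189 (8.46%) were, and with a count required in 30% of nuclei 2.85 and 1.23% of 6182 genes. Thinning gave 583 and 352 genes, and 68.4 and 67.3% of the higher and lower genes before thinning were among them. The spike-in ratio was 1.97 from medians over nuclei and 1.99 without the 6 1x4N nuclei with few genes. The difference in genes per nucleus was 594.5 at 20000 counts, 1003.5 at 100000 and 1244.5 unthinned. The difference in pericentral share was 6.24 points unthinned and 4.85 without Glul, Cyp2e1 and Alb. The share of genes with larger spread in 2x2N was 85.7% at 20000 counts and 91.5% without the 6 nuclei. Since those 6 were picked from 1x4N alone by a measure in which the groups differ, leaving them out widens the contrast by construction and checks nothing. In the other pools edgeR called 20 genes with no filter, DESeq2 called 4, and leaving out a pool gave 0 to 63 (1 without 2N, 23 without 2x4N, 63 without 4N); the lone pool left in an arm is then assumed to vary like the others. The causes of these moves were not tested, beyond the number of genes or nuclei each setting leaves. Over the named genes, 1843 of 1947 recomputed values kept their side of 2-fold, 39 passed it and 65 no longer did. Removing the top nucleus of each gene, removing the 6 nuclei and setting counts under 10 to 0 were chosen after seeing the data. No paired analysis was possible because the numbers in the labels count single nuclei and each group is 1 pool. Depth limits the low genes, and 1 nucleus per group had under 20000 counts.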
